A study of Mus musculus with 2 samples.

Results

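The genes of the Hippo pathway's transcriptional arm were examined in a map of EP300, the co-activator p300 that acetylates histones, in stomach of newborn mice. The set holds 10 of the 21938 protein-coding genes on the named chromosomes of GENCODE M21. They are the 4 TEAD factors (Tead1, Tead2, Tead3 and Tead4), the co-activators Yap1 and Wwtr1 (the gene of TAZ), and 4 target genes, namely Ccn1 (formerly Cyr61), Ccn2 (formerly Ctgf), Ankrd1 and Amotl2. They were listed by name for their place in the pathway, and no signal value entered the rule. Earlier results of these data were known when they were chosen. An EP300 summit, the point of highest signal in a peak, was counted for a gene where it lay in the gene body or within 100 kb of the gene's start; such summits are called linked, which states position and no regulation. The chromatin came from stomach tissue of strain B6NCrl at postnatal day 0, with no treatment named in the labels and the sex not collected. EP300 was immunoprecipitated in 2 libraries of 1 group, labelled as biological replicates 1 and 2. Since 1 biosample and 1 donor are named for the pair, differences between the libraries may be technical only. The series has a single group, hence no comparison between conditions and no test, and RNA levels were not analysed here. Stomach tissue mixes epithelium, smooth muscle and other cells, so weak binding in many cells and strong binding in few cells cannot be told apart.

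TEAD proteins bind DNA but activate little on their own. YAP and TAZ carry no DNA-binding domain and act by joining TEADs at their sites, where they recruit co-activators, EP300 among them. The Hippo kinases MST and LATS phosphorylate YAP and TAZ, which holds them in the cytoplasm, while stretch, stiff matrix and growth signals release them into the nucleus. In the gut YAP and TAZ are known for the growth of the mesenchyme and for regeneration of the epithelium. TEAD sites often lie near sites of AP-1, the Fos and Jun dimer, and SRF is a further partner of the pathway in contractile cells. Ccn1 and Ccn2 encode secreted matricellular proteins and are the usual readout of YAP activity. Ankrd1 encodes a nuclear ankyrin repeat protein of muscle, and Amotl2 an angiomotin that binds YAP and restrains it, which makes it a feedback gene.

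The sequences below show EP300 summits at which TEAD or AP-1 sites were found, and they are given first because the rest of the account refers to them. A TEAD site was taken as GGAATG and an AP-1 site as TGACTCA, each on either strand; the sites are in capitals, where CATTCC and TGAGTCA are the same motifs read on the opposite strand. A TEAD site followed by T, GGAATGT, is called the longer form. The letters were read from the GRCm38 assembly, which is mm10. The first 4 runs reach 100 bp to each side of the strongest TEAD-bearing summit of their gene. They lie at chr3:145649982-145650161 (minus strand, ended at the first base before the annotated 5′ UTR), chr9:102779627-102779827 (plus strand), chr17:28350875-28351075 (minus strand) and chr7:112720145-112720345 (plus strand), in the order printed. The last 3 runs show the other AP-1 sites, with 12 bases to each side, at chr7:112823857-112823887 (plus strand), chr17:28415404-28415434 (minus strand) and chr9:102763094-102763124 (plus strand).
Ccn1 promoter: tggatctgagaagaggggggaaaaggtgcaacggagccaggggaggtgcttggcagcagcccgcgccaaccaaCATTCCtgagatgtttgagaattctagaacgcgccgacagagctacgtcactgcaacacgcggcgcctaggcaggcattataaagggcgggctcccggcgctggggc
Amotl2 downstream: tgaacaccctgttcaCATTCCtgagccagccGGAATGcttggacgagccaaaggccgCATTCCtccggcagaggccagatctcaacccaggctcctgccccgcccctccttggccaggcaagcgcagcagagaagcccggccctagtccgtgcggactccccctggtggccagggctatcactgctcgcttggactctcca
Tead3 promoter: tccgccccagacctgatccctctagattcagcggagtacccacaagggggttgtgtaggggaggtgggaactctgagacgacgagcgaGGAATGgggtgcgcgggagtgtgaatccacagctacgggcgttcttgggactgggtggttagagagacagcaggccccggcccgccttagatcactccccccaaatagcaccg
Tead1 intron: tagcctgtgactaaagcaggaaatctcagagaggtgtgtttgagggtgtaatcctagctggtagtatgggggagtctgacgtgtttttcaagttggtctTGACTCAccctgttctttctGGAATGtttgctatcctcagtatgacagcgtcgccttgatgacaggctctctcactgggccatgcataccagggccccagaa
Tead1 intron, AP-1: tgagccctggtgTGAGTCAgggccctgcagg
Tead3 upstream, AP-1: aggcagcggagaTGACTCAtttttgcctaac
Amotl2 downstream, AP-1: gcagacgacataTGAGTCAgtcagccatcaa

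EP300 summits lay in the windows of 6 of the 10 genes: Tead1, Tead2, Tead3, Ccn1, Ccn2 and Amotl2. Tead4, Yap1, Wwtr1 and Ankrd1 had none. Among all protein-coding genes 49.9% had a linked summit, so 6 of 10 is near the background. The windows held 42 summits in 27 separate regions, none shared between members, and at 15 of them the nearest protein-coding start belonged to a neighbouring gene. With each summit given only to the gene of the nearest start, 5 of the 10 genes kept at least 1 (19.3% of all genes), and Tead2 had none left. Within 1 kb of their own coding starts 4 of the 10 had a summit, namely Tead1, Tead3, Ccn1 and Ccn2, against 11.1% of all genes. The median signal of the 42 linked summits was 29.2 (quartiles 20.1 and 37.0) and that of all 7733 optimal summits 30.2 (23.7 and 39.7). The medians were thus close. The 27 summits nearest to a member's start had a median of 28.7 (quartiles 14.1 and 35.4). The 15 nearest to another gene's start had 35.7 (24.9 and 46.3), and these differences were not tested. The authors deposited an optimal and a conservative set of peaks, both made with the irreproducible discovery rate (IDR), which keeps peaks that rank alike between lists; the optimal set is used unless another is named. The signal is the authors' value per peak, from the pooled reads unless a replicate is named. Each list has its own scale, so a value of replicate 1 cannot be set against one of replicate 2, and ranks within each list of 300000 peaks are given beside them.

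**Figure D1:**
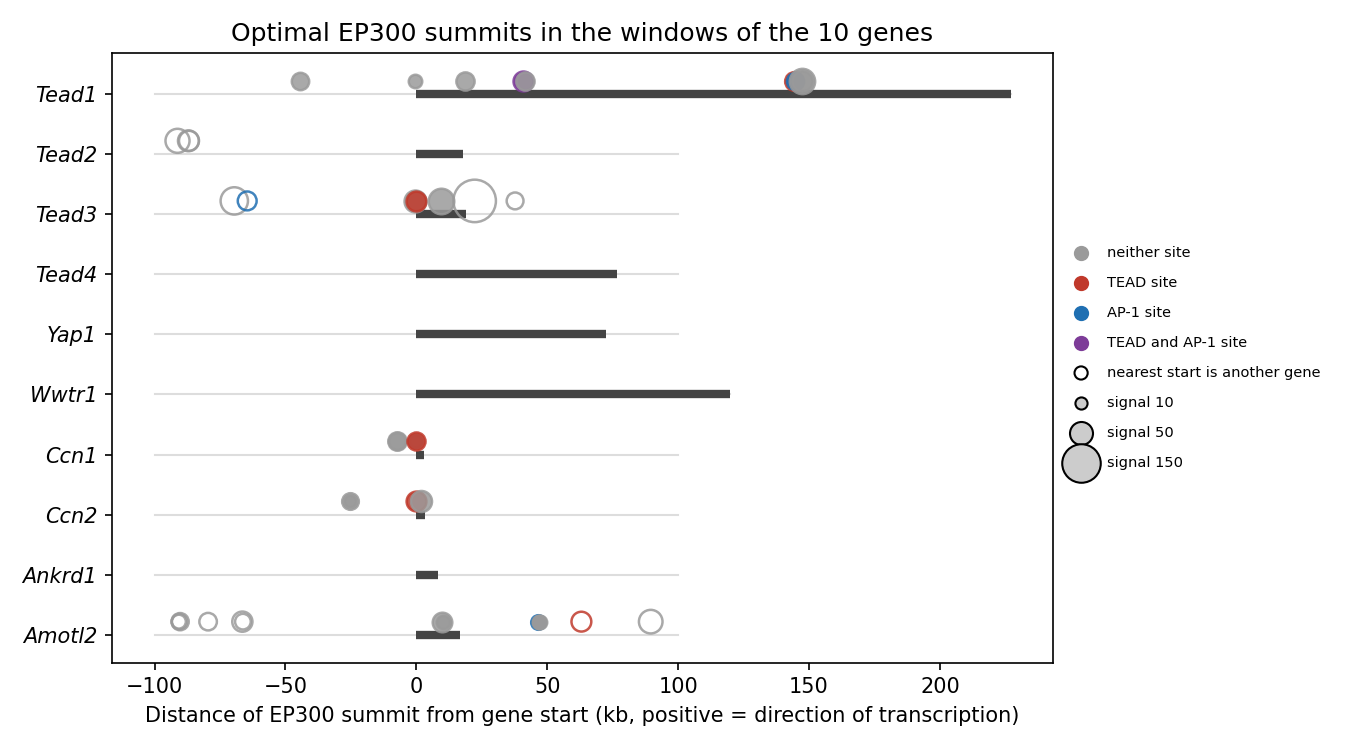
Position of each optimal EP300 summit relative to its gene's start, in kb along the direction of transcription, for the 10 genes. Bars are gene bodies, grey lines the search windows, circle area grows with the signal, colour marks TEAD and AP-1 sites within 100 bp, and open circles are summits nearest to another gene's start; Tead4, Yap1, Wwtr1 and Ankrd1 have no circle, and all circles of Tead2 are open.

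Tead1 (chr7:112679318-112906807), a TEAD factor known for muscle gene control, had 9 linked EP300 summits in 7 regions, and at each of them its own start was the nearest. The gene spans 227 kb and its window 327.5 kb, the longest of the set, and 7 of the 9 summits lay in its introns. The strongest peak of Tead1 lay 147184 bp into the gene (chr7:112826222-112826781), with a signal of 61.6, 18.1 in replicate 1 (rank 3858) and 40.1 in replicate 2 (rank 341). An overlapping peak with a signal of 38.0 shared those replicate peaks. Neither held a TEAD or AP-1 site within 100 bp. The summit 40927 bp from the start (chr7:112719965-112720524) was the only linked summit with both sites, the AP-1 site centred 2.0 bp and the TEAD site 21.5 bp from the summit, with 13 bases between them. Its signal was 36.2, with 5.52 in replicate 1 (rank 200650) and 24.7 in replicate 2 (rank 1271), so it stood high in the list of replicate 2 alone. Overlapping peaks 144217 and 144559 bp into the gene (signals 31.1 and 25.6) held a TEAD and an AP-1 site in this order. The former had a summit of replicate 1 inside it (15.7, rank 5884) and none of replicate 2, and the latter 5.09 in replicate 1 (rank 256092) and 19.6 in replicate 2 (rank 2558). At the promoter, the optimal set listed a peak with its summit 563 bp upstream and a signal of 13.5, with no summit of either replicate's list inside it. A stronger pooled peak overlapping it, with a summit 196 bp upstream and a signal of 35.4 (29.1 and 18.0 in replicates 1 and 2), was in the conservative set but not in the optimal one, as was a peak 16049 bp upstream (27.3, with 15.8 and 11.0 in replicates 1 and 2). The promoter peak held a TEAD site at its summit, shown here from the plus strand at chr7:112679110-112679139.
Tead1 promoter: gcgcacacccggCATTCCtagtatccggcc

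Tead3 (chr17:28331671-28350817, minus strand) had 7 linked summits, of which 3 were nearest to its own start. Overlapping promoter peaks had summits 480 and 158 bp upstream, with signals of 44.8 and 35.4. The former had a signal of 24.5 in replicate 1 (rank 1557) and 19.0 in replicate 2 (rank 2785). The latter (chr17:28350695-28351254) had no summit of replicate 1 inside it and 26.6 in replicate 2 (rank 1028), and its TEAD site, in the 6-letter form, was centred 9.5 bp from the summit. A peak in an intron of Tead3, 9553 bp from the start (chr17:28340984-28341543), had a signal of 62.7, 26.9 in replicate 1 (rank 1147) and 33.6 in replicate 2 (rank 540). It ranked above 92.6% of the optimal set and, within 100 bp, held neither site. The remaining 4 summits were nearest to other genes. By far the strongest, with a signal of 183.5, lay 45 bp from the start of Rpl10a, a ribosomal protein gene, 1 was at Fance, a gene of DNA repair, and 2 were in introns of Fkbp5, a chaperone gene known for its response to glucocorticoids (signals 72.8 and 31.8). The weaker of the Fkbp5 peaks held an AP-1 site, with 9.75 in replicate 1 (rank 26152) and 13.3 in replicate 2 (rank 7837).

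The other TEAD genes had no optimal EP300 summit to which their own start was the nearest. All 3 summits linked to Tead2 (chr7:45215753-45233644) had another gene's start as the nearest. Of these, 2 lay 87061 and 86826 bp upstream, at the start of the ribosomal protein gene Rpl13a, with signals of 39.9 and 36.3 and, for both, 21.0 in replicate 1 (rank 2471) and 25.0 in replicate 2 (rank 1225). At the promoter of Tead2 the pooled list reached 15.2 (rank 27910, 13.7 in replicate 1 and 7.64 in replicate 2). For Tead4 (chr6:128224288-128300823, minus strand) the strongest pooled peak lay in an intron, 44056 bp from the start, with a signal of 18.6 (rank 15193). It had 5.46 in replicate 1 (rank 207572) and 11.7 in replicate 2 (rank 11642). At the promoter of Tead4, 85 bp upstream, the pooled list reached 15.2 (rank 27470). That peak had 7.74 in replicate 1 and no summit of replicate 2 inside it.

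Neither co-activator gene had an optimal summit. The strongest pooled peak in the window of Yap1 (chr9:7931999-8004596, minus strand) lay 2136 bp upstream of its start, with a signal of 22.1 (rank 9786, 9.60 in replicate 1 and 13.6 in replicate 2). It held an AP-1 site, first base 2068 bp upstream, printed below from the minus strand at chr9:8006646-8006676. At the start of Yap1 itself the pooled signal was 14.4 (rank 33512). For Wwtr1 (chr3:57455649-57575910, minus strand) the strongest pooled peak, 21.7 (rank 10238), lay at the start of Commd2. Its own promoter had a pooled signal of 15.4 (rank 26326), with 10.5 in replicate 1 (rank 20437) and 17.0 in replicate 2 (rank 3871). This peak, with its summit 205 bp upstream, was in the conservative set and not in the optimal one, and a TEAD site had its first base 136 bp upstream of the start (minus strand, chr3:57576029-57576058). For comparison, the pooled list had a signal of 24.2 at rank 7737, which is the number of optimal peaks. Tead4, Yap1, Wwtr1 and Ankrd1 had no peak in their windows that reached it. Optimal peaks can nevertheless be weaker than these, as in Ccn1, so the set was not cut at a fixed signal. Absence from the optimal set therefore does not show that EP300 was absent.
Yap1 upstream, AP-1: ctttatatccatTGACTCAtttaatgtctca
Wwtr1 promoter: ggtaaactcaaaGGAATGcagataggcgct

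**Figure D2:**
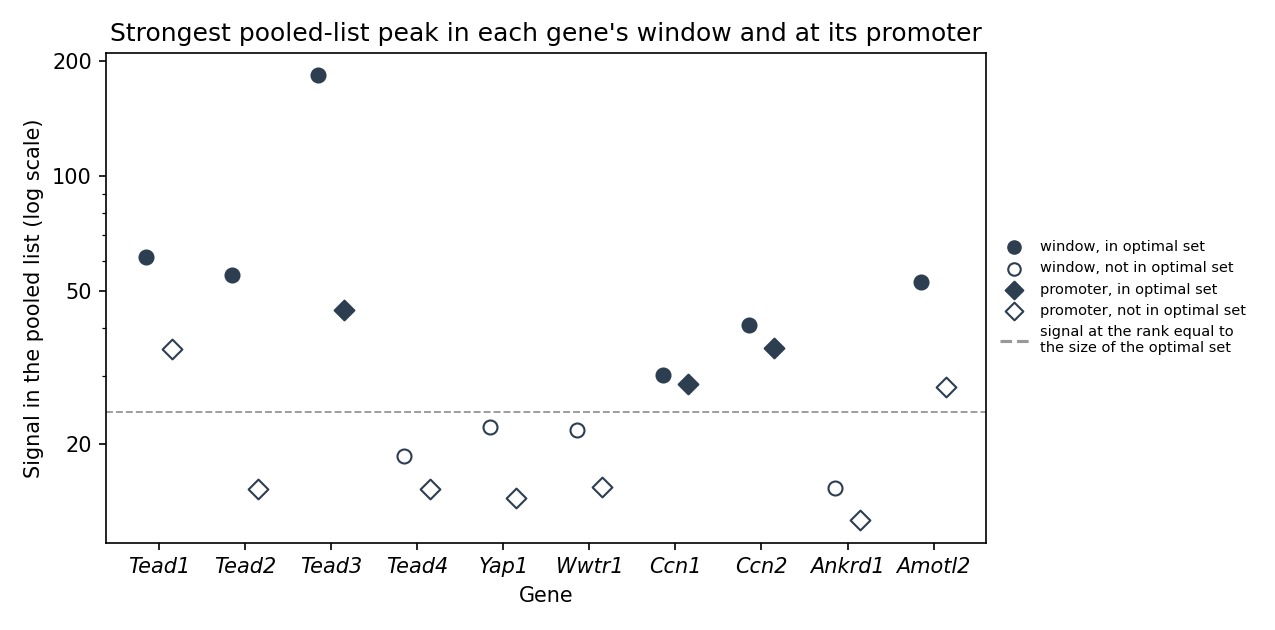
Signal of the strongest pooled-list peak in each gene's window (circles) and within 1 kb of its coding starts (diamonds), on a log scale, filled where that peak is in the optimal set. The dashed line is the signal of 24.2 at the rank equal to the size of the optimal set; Tead4, Yap1, Wwtr1 and Ankrd1 lie wholly below it, and the open diamonds of Tead1 and Amotl2 lie above it.

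Ccn2 (chr10:24595442-24598683) had an EP300 peak directly at its promoter, with its summit 108 bp upstream of the start. The signal was 35.5, with 18.5 in replicate 1 (rank 3568) and 12.6 in replicate 2 (rank 9231). The window around this summit held 3 TEAD sites. At least 3 TEAD sites were found at 2 of the 42 linked summits (4.76%, exact 95% binomial interval 0.582 to 16.2), this one and 1 in the window of Amotl2, against 8 of all 7733 optimal summits (0.103%). This share lies below the interval, but the count of 3 was chosen after the sites were seen and the difference was not tested. The other 6 summits, also named after their values were seen, were nearest to the starts of Lsm6, Klf6, Col15a1, Hopx, Rubcn and Syt2.

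Ccn2 had 3 further summits, and none held either site. The strongest of the gene lay 1733 bp downstream of the start, on a UTR exon of Ccn2 (chr10:24596895-24597454), with a signal of 40.9, 27.6 in replicate 1 (rank 1048) and 10.9 in replicate 2 (rank 14423). This peak stood far higher in the list of replicate 1 than in that of replicate 2. An upstream pair of overlapping peaks lay 25500 and 25268 bp before the start, with signals of 23.6 and 9.07. All 4 peaks of Ccn2 were also in the conservative set.

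Ccn1 (chr3:145646976-145649981, minus strand) likewise had a promoter peak with a TEAD site. Its summit lay 80 bp upstream of the start (chr3:145649781-145650340), with a signal of 28.7, 16.8 in replicate 1 (rank 4833) and 12.4 in replicate 2 (rank 9674). The site, in the longer form and opposite to the gene's direction, was centred 24.5 bp upstream of the summit. Overlapping peaks of the same region had summits 300 and 567 bp upstream and signals of 14.0 and 11.7, without a site within 100 bp. The strongest peak of Ccn1 lay 7193 bp upstream (chr3:145656894-145657453), with a signal of 30.3, 11.2 in replicate 1 (rank 16436) and 16.9 in replicate 2 (rank 3941). An overlapping peak 7408 bp upstream had a signal of 24.2. The 2 regions of Ccn1 thus differed in which library ranked them higher, the promoter in replicate 1 and the upstream region in replicate 2. For all 5 summits of Ccn1 its own start was the nearest coding start, and likewise for all 4 of Ccn2.

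Amotl2 (chr9:102716672-102733418) had 14 linked summits in 7 regions, a count that 53 protein-coding genes reached or exceeded (0.242%). It was the highest count of the set under the rule used, but with nearest starts only Tead1 had 9 and Amotl2 6, and with overlapping peaks counted once both had 7. Much of this count came from neighbours and from overlapping peaks, since 8 of the 14 summits were nearest to Cep63, Anapc13 or Ryk. Inside the gene a summit lay 9782 bp from the start, in an intron (chr9:102726174-102726733), with a signal of 34.7, 27.7 in replicate 1 (rank 1037) and 10.5 in replicate 2 (rank 16503). A peak overlapping it had a signal of 13.4. Beyond the gene, 4 overlapping peaks with summits between 46509 and 47142 bp from the start had signals of 11.5 to 16.9, and none of the 4 was in the conservative set. The first of them held an AP-1 site 72.0 bp from its summit; it had no summit of replicate 1 inside it and a signal of 8.56 (rank 35540) in replicate 2. The TEAD-bearing summit (chr9:102779447-102780006) lay 63055 bp from the 5′ end of Amotl2. The nearest start of a coding transcript, 55190 bp away, was that of Ryk. The signal of this summit was 35.7, with 14.0 in replicate 1 (rank 8309) and 18.0 in replicate 2 (rank 3286). Its 3 TEAD sites were grouped between 82.5 and 40.5 bp to the side of the summit that faces Amotl2, in both orientations, and 1 of them had the longer form. The strongest linked peak, 89538 bp from the start, had a signal of 52.8 (28.5 in replicate 1, 22.6 in replicate 2) and no site within 100 bp of its summit. No optimal summit lay within 1 kb of a coding start of Amotl2, although the pooled list held a peak there with a signal of 28.1 (rank 5178) that the optimal set left out.

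Ankrd1 (chr19:36111961-36120099, minus strand) had no optimal summit. The strongest peak of the pooled list in its window reached a signal of 15.3 (rank 27099, 6.13 in replicate 1 and 6.45 in replicate 2) and was nearest to the start of Rpp30. At its own promoter the pooled list held a peak with a summit 82 bp past the start and a signal of 12.6 (rank 54011); replicate 1 had no summit inside it and replicate 2 a signal of 5.88 (rank 146146). The window of this weak peak held 2 TEAD sites, whose first bases lay 45 and 132 bp past the GENCODE start. The RefSeq start lies further into the gene, and from it the same 2 sites lay 210 and 123 bp upstream. These sites are also the ones counted for Ankrd1 among the RefSeq promoters below. They are shown with 12 bases to each side, from the minus strand at chr19:36120037-36120066 and chr19:36119950-36119979.
Ankrd1 first site: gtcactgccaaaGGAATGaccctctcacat
Ankrd1 second site: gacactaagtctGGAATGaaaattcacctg

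TEAD sites were about as frequent at the linked summits as at EP300 summits at large. Within 100 bp, 6 of the 42 linked summits held a TEAD site (14.3%, exact 95% binomial interval 5.43 to 28.5), against 14.2% of all 7733 optimal summits. The longer form GGAATGT was at 4 of 42 (9.52%, interval 2.66 to 22.6), against 5.42%. AP-1 sites were at 4 of 42 (9.52%, interval 2.66 to 22.6), against 9.74%, and both sites together at 1 (interval 0.0603 to 12.6%), against 1.66%. The CArG box of SRF was at none of the 42, which allows up to 8.41%, against 1.77%. At coding promoters, 3 of 15 linked summits held a TEAD site, (interval 4.33 to 48.1%), against 9.35% of the promoter summits of the optimal set. All 3 were at members' own starts (Tead3, Ccn1 and Ccn2). Each of the backgrounds in this comparison lies within the interval for the linked summits. The intervals cover counting error only and overlapping peaks are not independent, so no difference in frequency is shown. Among RefSeq promoters of GRCm38.p6, stretches of 300 bases around each start, 7 of the 10 members could be matched, and 6 of the 7 held a TEAD site in at least 1 promoter (Tead3, Yap1, Wwtr1, Ccn1, Ankrd1 and Amotl2). The same held for 16.6% of all 27025 gene symbols in that table. Tead3 and Wwtr1 had more than 1 promoter there, and the members were listed for their place in the pathway. This contrast was not tested. Of the 6, 3 (Yap1, Ankrd1 and Wwtr1) had no optimal summit.

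**Figure D3:**
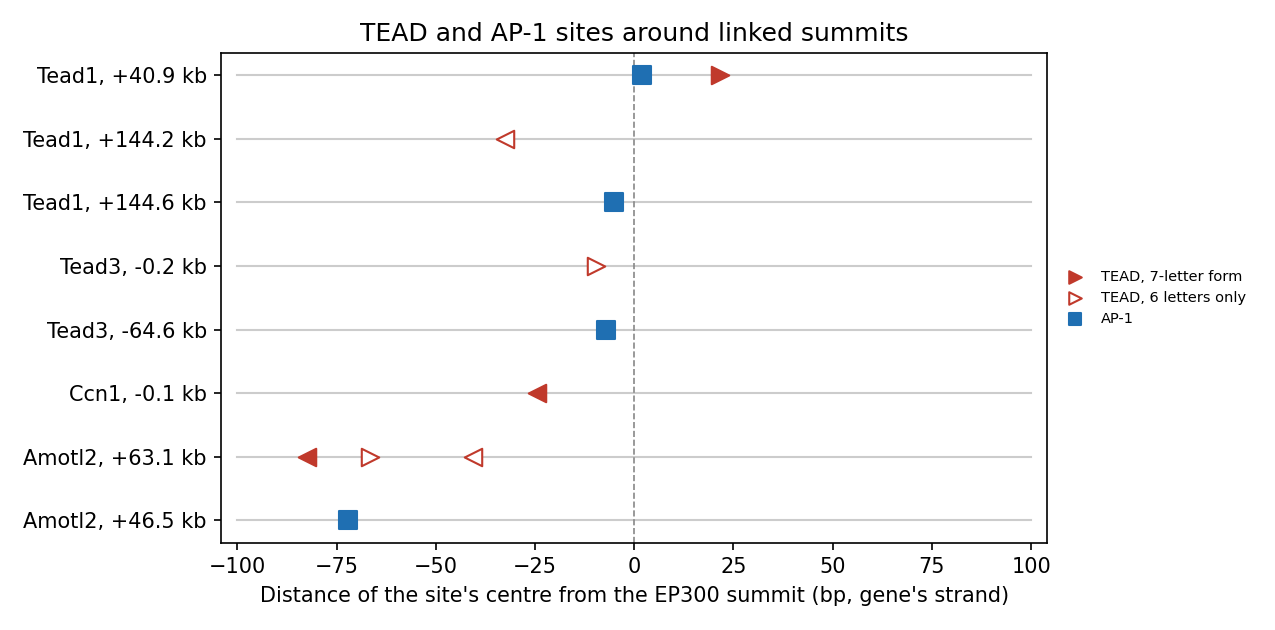
Position of TEAD sites (triangles, pointing along the site's direction) and AP-1 sites (squares) within 100 bp of 8 linked summits that hold any (all but that of Ccn2), with the summit at 0 and the gene's direction to the right. The TEAD sites of Amotl2 point both ways on 1 side of the summit, and only the Tead1 summit 40927 bp from the start holds both motifs.

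None of the 4 linked summits with an AP-1 site was in the conservative set or ranked within the first 7737 peaks of replicate 1. In replicate 2 the 2 of Tead1 ranked that high (1271 and 2558). Those of Tead3 and Amotl2 did not (7837 and 35540), and that of Amotl2 had no summit of replicate 1 inside it. Throughout, an optimal peak counts as in the conservative set only where a peak with identical borders is listed there. A region can thus hold a conservative peak with other borders. The AP-1-bearing peak of Tead1 144559 bp into the gene overlapped such a peak (chr7:112823255-112823814). The median rank of all 4 in replicate 2 was 5197, against 4997 for all linked summits. Of all 753 optimal summits with an AP-1 site, 61.8% were in the conservative set, 60.6% ranked that high in replicate 1 and 66.5% in replicate 2, close to the whole optimal set (61.3%, 61.4% and 66.0%). Of the 6 TEAD-bearing linked summits, 5 were in the conservative set, the exception being the summit of Tead1 with both sites. In replicate 1, 3 of them ranked within the first 7737 peaks, and in replicate 2 the other 3 did. None of the 6 ranked that high in both replicates, a count for which no share over all summits is given. Of all 1100 optimal summits with a TEAD site, 61.7% were in the conservative set. Within the first 7737 peaks were 59.5% of them in replicate 1 and 67.5% in replicate 2. Over all 42 linked summits 26 were in the conservative set (61.9%), and 57.1% ranked that high in replicate 1 and 54.8% in replicate 2. Of the 42, 32 had a summit of each replicate's list inside them, and no share over all optimal summits is given for this. The difference between the AP-1-bearing and the other linked summits was seen in the values and was not tested.

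**Figure D4:**
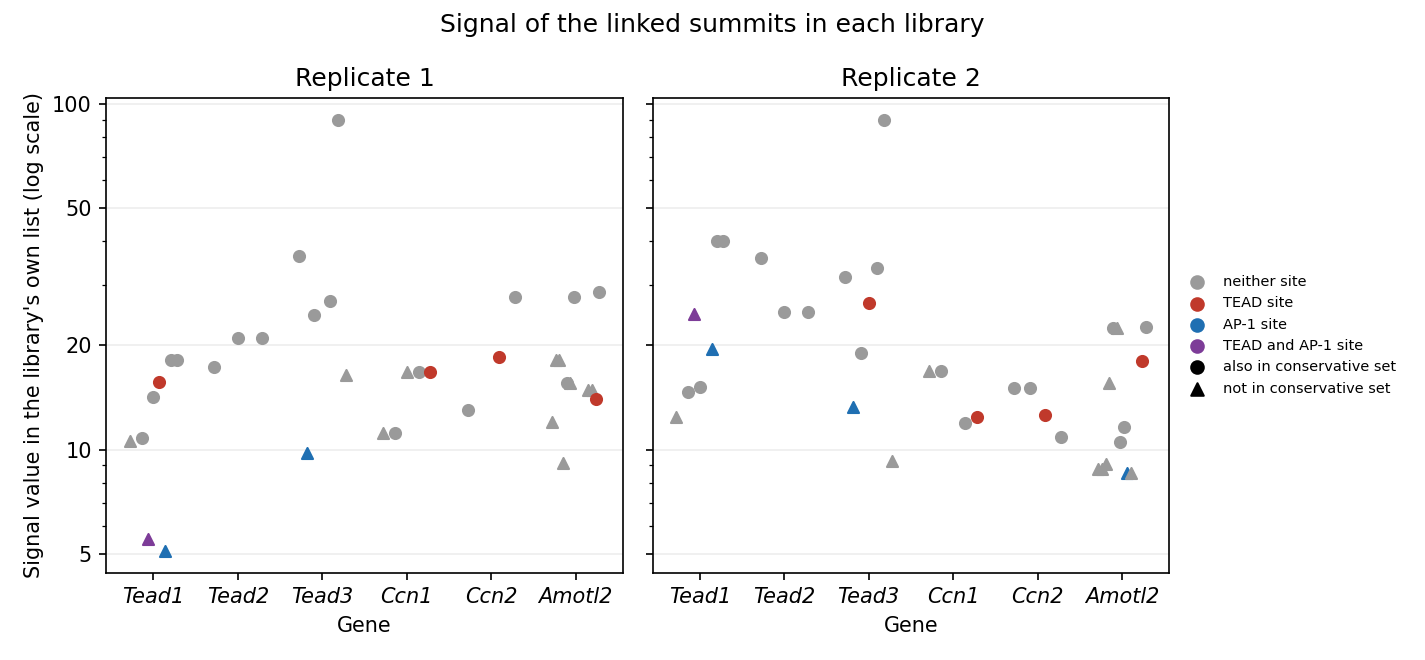
Signal of the linked summits in the list of replicate 1 (left) and replicate 2 (right), on a log scale, by gene, with colour for TEAD and AP-1 sites and triangles for peaks outside the conservative set. Each library has its own scale; the AP-1-bearing summits of Tead1 lie at the bottom on the left (5.52 and 5.09) and in mid-range on the right (24.7 and 19.6), and the same peak is drawn more than once where optimal peaks overlap.

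The same window rule was applied to other genes of the pathway. Of 27 further Hippo genes (kinases, scaffolds, upstream regulators and Vgll co-factors), 15 had a linked summit (55.6%), and 8 (29.6%) had at least 1 nearest to their own start, against 19.3% of all genes. Rassf1, a scaffold of the MST kinases, had 7, none of them nearest to its own start (strongest signal 63.1, in an intron of Hyal2). Vgll4, which competes with YAP for TEADs, had 4, all nearest to its own start (strongest 45.9, with 33.5 in replicate 1 and 20.7 in replicate 2). Amotl1, an angiomotin, had 4 (44.7, nearest to Piwil4), and Wwc1, the KIBRA scaffold that promotes LATS activity, had 3 in its own neighbourhood (52.0, with 20.6 and 29.0 in replicates 1 and 2). These 36 summits held a TEAD site in 10 cases (27.8%) and an AP-1 site in 1 (2.78%), against 14.2% and 9.74% of all optimal summits.

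Of 18 further target genes of YAP and TAZ, 11 had a linked summit (61.1%) and 5 (27.8%) at least 1 nearest to their own start, against the same 19.3%. Rbms3, an RNA-binding protein gene of great length, had 9, all nearest to its own start (strongest 40.2, with 9.92 in replicate 1 and 24.3 in replicate 2). F3, tissue factor of blood clotting, had 4, none nearest to its start (32.7, nearest to Abcd3). Myof, the membrane repair protein myoferlin, had 3 (32.7, in an intron of its own) and Ccdc80, a matrix protein gene, had 3 (32.3). TEAD sites were at 4 of these 30 summits (13.3%) and AP-1 sites at 5 (16.7%), with both at 1. Ptpn14 and Lats2 are in both lists. Among all genes 49.9% had a linked summit, and none of these differences in shares was tested.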

How the data were processed

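The assay was ChIP-seq with an antibody to EP300, on 2 libraries of newborn mouse stomach. The deposited files, per the file headers in the readme texts, are 5 peak lists on mm10: 1 for each replicate, 1 for the pooled reads, and the optimal (7737 peaks) and conservative (6974 peaks) IDR sets. For the aligner and the peak caller no name is given in the sources used here. Per the labels there are possible control experiments, which were not analysed here. Peak strength is the signal value the authors deposited, not normalized between lists; each unthresholded list ends at 300000 peaks and depth is unknown. The deposited score columns (a scaled IDR score and a q score) entered no result. The deposited summit offset, a position in bp, gave the summit.

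Of the optimal peaks, 7733 lay on named chromosomes. Gene starts, bodies and coding transcripts came from GENCODE M21, sequence from GRCm38 and promoters from RefSeq (GRCm38.p6). A replicate's signal is that of the strongest peak of its list with a summit inside the optimal peak, so overlapping peaks can share it. The nearest start is the nearest start of a protein-coding transcript, and a promoter summit lies within 1 kb of it. Distances of summits from a member's start are taken from the 5′ end of its gene, which can differ from its coding transcript starts. Motifs were matched wholly within 100 bp of the summit. Intervals are exact (Clopper-Pearson) 95% binomial intervals. Computation used Python 3.11.15, pandas 2.3.3, scipy 1.17.1, pysam 0.24.0 and samtools 1.23.1, and the functions for links and sites were checked on simulated data. Members and lists were chosen with earlier results of these data known, so counts are set beside those of all genes or summits and no test was run. The text names all members, the genes nearest to their summits, and of each further list the 4 genes with the most linked summits, ties going to the stronger peak. Windows were printed for the strongest TEAD-bearing summit of each member, apart from 1 that is not reported here, as is 1 neighbouring gene; the remaining printed sites and the genes with 3 or more TEAD sites were chosen after their values were seen. Alternative settings covered the peak set, the windows, the assignment, overlapping peaks and the motifs.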

Additional observations from a re-analysis of the deposited data

How the results depend on the processing

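The count of members with a linked summit stayed between 5 and 9 of 10 under the 9 alternatives, and within 1.5 times the reported 6 in each. In the strongest 7737 peaks of replicate 2 alone it was 9 and in those of replicate 1 alone 7, with 1 summit each for Yap1 and Tead4 and 2 for Wwtr1 in replicate 2, and 1 for Tead4 in replicate 1. Ankrd1 had none under any of the 9. The 49.9% of all genes with a linked summit is for the optimal set. No such share is given for the peaks of a single replicate, so the counts of 9 and 7 have no background. The 42 linked summits became 20 in the stronger 50% of the optimal set, 27 with nearest starts only, 27 with overlapping peaks counted once, and 34 and 27 in replicates 2 and 1 alone. The share with a TEAD site lay between 9.52% and 25.0%, within the interval of the reported 14.3% in every alternative. The 9.52% is for the longer form, against 5.42% of all summits. The 25.0% is for the stronger 50% of the optimal set, against 14.2%. Without promoter summits the share was 11.1%, against 17.2%. The share with an AP-1 site was 0 in the conservative set (against 9.06% of all its summits), as was the share with both sites (against 1.61%). In replicates 2 and 1 alone the AP-1 share was 11.8% and 0, against 9.73% and 8.62%. The share with both sites was 2.94% and 0 there, against 1.63% and 1.41%. The cause was not tested. In replicates 2 and 1 alone Ccn1 went from 5 summits to 2 and 1, and Ccn2 from 4 to 1 and 3. For Amotl2 the 14 summits became 7 in the conservative set or with overlapping peaks counted once, 8 and 5 in replicates 2 and 1 alone, and 6 with nearest starts only. The order of the genes by count was not stable: Amotl2 led alone under 1 of the 9 alternatives (within 100 kb without the gene body), and Tead1 led it in the conservative set (10 against 7), replicate 2 alone (9 against 8), replicate 1 alone (8 against 5), the pooled list (12 against 10), within 50 kb (9 against 6) and with nearest starts only (9 against 6). Tead3 exceeded Tead1 in the stronger 50% of the optimal set (6 against 4) and within 100 kb without the gene body (7 against 5). Within 50 bp of the summit all 6 TEAD-bearing summits were still counted as 6 (14.3%, against 7.85% of all summits), and within 200 bp 8 held a site (19.0%, against 23.9%). No paired analysis was possible because the 2 libraries form a single group. The files hold no read counts, so the depth behind the signals is unknown.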
